A study of Homo sapiens with 30 samples.

Results

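Soshiho-tang and Yijin-tang are multi-herb decoctions of Korean medicine. Soshiho-tang is built on Bupleurum and Scutellaria roots with ginseng, and Yijin-tang on Pinellia tuber, citrus peel and Poria, and both recipes contain Pinellia, ginger and licorice. The comparison described here sets A549 cells given the ethanol extract of Soshiho-tang at 500 µg/mL against A549 cells given the ethanol extract of Yijin-tang at the same concentration. Its libraries were taken by their sample labels, and it holds 6 of the 30 libraries of the series, 3 for each extract. A549 is an established human lung adenocarcinoma line of epithelial character. All 6 libraries come from cells treated for 24 h, belong to the batch that the titles call E, and stand for extracts made with 70% ethanol. The same extracts at 100 and 20 µg/mL and the DMSO vehicle, with 3 libraries each, give the levels quoted beside the comparison. Libraries of another ethanol extract, Okbyeongpung-san at 500, 100 and 20 µg/mL, titled batch E or D, enter the fit but are not described. The DMSO in the vehicle is 0.1% in the sample labels but 2% in the text on the series. The vehicle libraries are shared by both extracts, so their values are set beside the others and not used as a test between them. The sources used here do not say whether replicate libraries came from separate cultures, so the p-values measure the spread between libraries, which may be technical.

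Cells short of amino acids, or with unfolded protein in the endoplasmic reticulum, switch on the integrated stress response. In it, kinases phosphorylate the initiation factor eIF2α, general translation falls, and the transcription factor ATF4 is translated and drives genes for amino acid synthesis, transport and tRNA charging. The aryl hydrocarbon receptor is a separate sensor, which binds planar aromatic compounds, many of them from plants, and induces cytochrome P450 genes of the CYP1 family. Both systems are well studied in airway epithelial cells.

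The Soshiho-tang libraries held 25008921 to 29566215 counts and the Yijin-tang libraries 29221167 to 33479354. The 30 libraries of the series spanned 19833106 to 38008449, with the vehicle libraries at the low end. Messenger RNAs of the mitochondrial genome took 6.98% ± 0.307 (SD, n = 3) of the counts with Soshiho-tang, 7.46% ± 0.633 with Yijin-tang and 10.7% ± 0.205 with vehicle. Counts of replicate libraries differed by more than sampling noise in each of the 6 pairs, with a chi-square per degree of freedom of 3.97 to 10.1, so no library was a copy of another. Of the epithelial A549 markers 10 of 10 were detected, and their summed level was 19600 to 20100 CPM (counts scaled to the TMM-adjusted library size) with Soshiho-tang and 20000 to 20700 CPM with Yijin-tang. Immune markers summed to 13.6 to 18.8 CPM and 12.4 to 16.0 CPM, with CD3E, CD3D and MS4A1 at 0 in all 6 libraries. Endothelial markers summed to 6.69 to 7.61 CPM and 6.03 to 6.73 CPM. Fibroblast markers summed to 36.1 to 42.1 CPM and 49.9 to 53.7 CPM, a gap made mainly by COL1A1, which is described below.

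At 500 µg/mL the extracts left A549 cells in measurably different states. Of 17459 genes tested, 2200 (12.6%) differed at an adjusted p below 0.05 in edgeR's quasi-likelihood test with Benjamini-Hochberg adjustment, which is what "called" means throughout. They divided into 1101 genes (6.31% of those tested) higher and 1099 (6.29%) lower with Soshiho-tang. The median absolute log2 fold change of the called genes was 0.32, and the median over all tested genes was 0.01. Changes of at least 2-fold were uneven, with 83 genes higher and 19 lower with Soshiho-tang. The 3 libraries of each extract did not overlap for 98.5% of the called genes, against 32.8% of all tested genes. Leaving out a single library gave 1361 to 1811 calls, with the lowest number when Soshiho-tang replicate 2 was left out.

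At lower concentrations the same contrast gave few calls. At 100 µg/mL 0 genes (0.0%) were called in edgeR, with 672 at an unadjusted p below 0.05. DESeq2 called 3 there, and edgeR without the filter on low counts 108. At 20 µg/mL 1 gene (0.00573%) was called, CYP1B1, with 265 at an unadjusted p below 0.05. DESeq2 called 4 there, and edgeR without the filter 57. Both unadjusted numbers are below what 0.05 of the 17459 tests would give. Replicates scattered more in some of these groups than at 500 µg/mL, where the chi-square per degree of freedom was 3.97 to 10.1. At 100 µg/mL it was 7.6 to 17.1 with Soshiho-tang and 6.94 to 18.5 with Yijin-tang. At 20 µg/mL it was 6.02 to 10.6 and 12.2 to 21.2, in the same order. The part of this scatter in the few calls was not tested. Of the 2200 genes called at 500 µg/mL, 0 were called at 100 µg/mL and 1473 had the same sign there, in libraries that are separate from those at 500 µg/mL. The share with the same sign over all tested genes was not computed, so the 1473 are not read as agreement between concentrations. The difference between extracts was then tested for its own change with dose, by subtracting the difference at 20 µg/mL from that at 500 µg/mL. This change was called for 397 genes (2.27%) in the direction of Soshiho-tang and 308 (1.76%) in the direction of Yijin-tang, 705 in all and 454 without Soshiho-tang replicate 2 at 500 µg/mL. Within each extract the 500 µg/mL and 20 µg/mL libraries also differed unequally. With Soshiho-tang 1807 genes (10.3%) were higher and 1781 (10.2%) lower at 500 than at 20 µg/mL, and with Yijin-tang 50 (0.286%) were higher and 73 (0.418%) lower. These within-extract comparisons use the same 500 µg/mL libraries as the comparison of extracts. Against vehicle, 5783 of the 17459 tested genes were called for Soshiho-tang at 500 µg/mL and 2737 for Yijin-tang. Yijin-tang at 500 µg/mL differed from its own 20 µg/mL libraries in only 123. A gap to vehicle is therefore not by itself a change with concentration, and what sets the vehicle libraries apart was not tested.

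**Figure D1:**
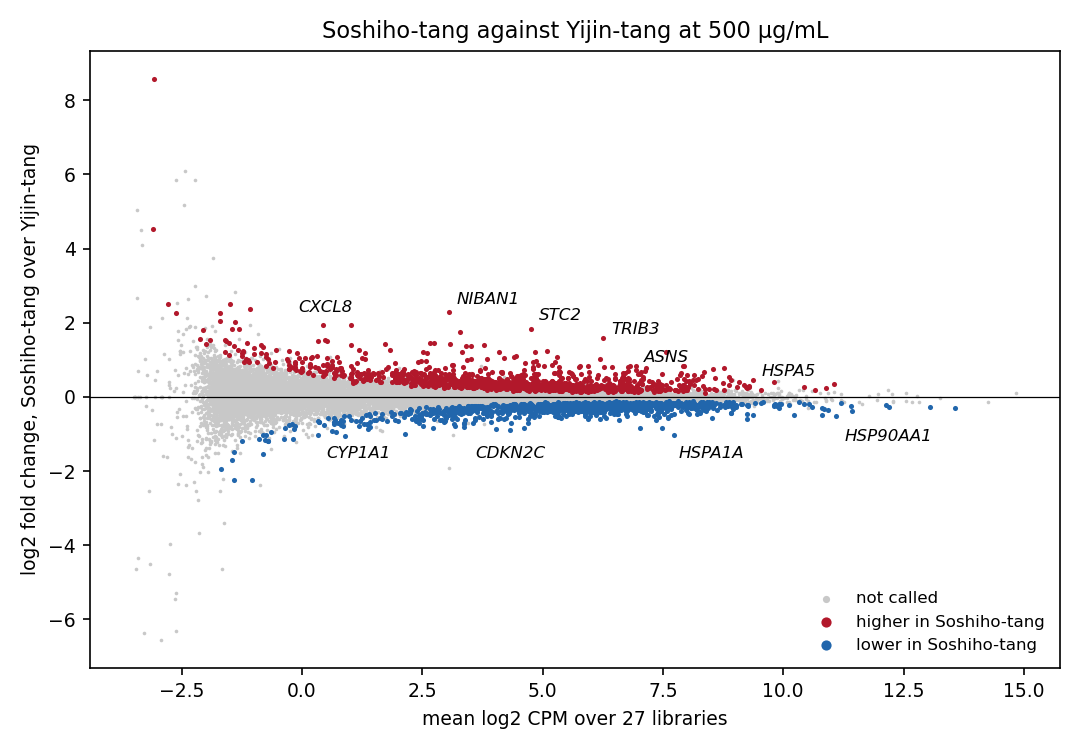
Each point is a gene, with its mean log2 CPM over the 27 fitted libraries on the horizontal axis and the log2 fold change of Soshiho-tang over Yijin-tang at 500 µg/mL (3 libraries each) on the vertical axis. Red points are the 1101 genes called higher with Soshiho-tang and blue points the 1099 called lower; among well expressed genes the red points reach further from 0.

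The largest group difference was in the integrated stress response. Of its regulators and effectors 21 were tested, 17 were called higher with Soshiho-tang and 0 lower, and their median log2 fold change was 0.84. Leaving out single libraries kept 16 to 17 of them called. NIBAN1, a stress-induced protein linked to translational control (ENSG00000135842, chr1:184790724-184974550 on the minus strand of GRCh38), had the largest absolute log2 fold change among tested genes with a mean log2 CPM of at least 2. Its level was 37.8, 47.3 and 52.95 CPM in the Soshiho-tang libraries and 8.51, 9.98 and 9.88 CPM in the Yijin-tang libraries. The groups are far apart, at a log2 fold change of 2.28 ± 0.130 (SE, adjusted p = 1.66e-11). Vehicle libraries averaged 5.61 CPM, so both extracts lay above vehicle and Soshiho-tang much further.

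STC2, a secreted stanniocalcin induced by ATF4 (ENSG00000113739, chr5:173314713-173329503, minus strand), showed the same arrangement with less scatter. It stood at 107, 128 and 132 CPM with Soshiho-tang against 35.7, 33.8 and 33.2 CPM with Yijin-tang, a log2 fold change of 1.84 ± 0.062 (adjusted p = 4.26e-16). Vehicle averaged 20.7 CPM. TRIB3, a pseudokinase that restrains ATF4 and AKT (ENSG00000101255, chr20:362835-397559, plus strand), reached 248, 274 and 248 CPM against 86.6, 87.6 and 82.8 CPM. Its log2 fold change was 1.58 ± 0.083 (adjusted p = 5.33e-12), and no library of either extract came near the other group.

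The transcription factors of the response differed to unequal degrees. ATF4 itself, which is controlled mostly at translation, was modestly higher, at 340, 332 and 349 CPM with Soshiho-tang and 267, 285 and 257 CPM with Yijin-tang (log2 fold change 0.34, adjusted p = 0.00134). ATF3, a stress-induced repressor, was at 13.7, 16.1 and 15.0 CPM against 5.97, 5.38 and 5.21 CPM (log2 fold change 1.44). DDIT3, which encodes the pro-death factor CHOP, was at 27.9, 38.5 and 33.8 CPM against 9.94, 9.89 and 10.1 CPM (log2 fold change 1.74). DDIT3 overlaps MARS1 on the opposite strand, and the strand setting of the counting is not given in the sources used here. CEBPG, a partner of ATF4, averaged 199.6 CPM ± 7.29 (SD, n = 3) with Soshiho-tang and 112.9 CPM ± 4.66 with Yijin-tang. With Yijin-tang ATF3 (vehicle mean 5.27 CPM) and DDIT3 (vehicle mean 8.42 CPM) stayed within 2 CPM of vehicle, while with Soshiho-tang both were well above it.

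Effectors that feed back on translation or redox balance were also higher. PPP1R15A, the phosphatase subunit that reverses eIF2α phosphorylation, was at 59.9, 72.2 and 72.1 CPM with Soshiho-tang and 29.4, 30.0 and 26.7 CPM with Yijin-tang, a log2 fold change of 1.25 (adjusted p = 2.2e-11). CHAC1, which degrades glutathione, was at 21.3, 20.0 and 20.6 CPM against 7.60, 7.57 and 7.54 CPM. SESN2, a leucine sensor that restrains mTORC1, was at 33.9, 40.7 and 37.6 CPM against 14.2, 14.7 and 13.4 CPM. Each of these had all Soshiho-tang libraries above all Yijin-tang libraries, and 98.5% of all called genes had no overlap in either direction. DDIT4, another brake on mTORC1, averaged 464 CPM ± 23.2 against 259 CPM ± 13.2. GDF15, a secreted stress hormone, averaged 45.3 CPM ± 2.93 against 21.3 CPM ± 1.295, with vehicle at 19.4 CPM. Of the wider list of mTORC1 brakes and autophagy genes, 8 of 19 were called higher and 0 lower, with a median log2 fold change of 0.10. NIBAN1 is in that list as well as in the stress response list, and counts in both.

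Promoter sequence was examined because the stress response acts through a short composite element bound by C/EBP and ATF proteins. The search used TTGCATCA and TGATGNAA on both strands of RefSeq promoters of GRCh38.p14, which run from 250 bases before to 50 bases after each start site, and the first string read on the other strand is an instance of the second. Matches in ATF3, CARS1 and TARS1, of which TARS1 was not called, are not printed. The promoters below belong to other genes described in this report, all called higher with Soshiho-tang. They show what the element looks like, with the match in capitals, 5′ to 3′ on the gene's strand.
CHAC1 (chr15:40953236-40953295, plus strand): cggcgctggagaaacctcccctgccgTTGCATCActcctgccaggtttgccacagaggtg
CEBPG (chr19:33374045-33374104, plus strand): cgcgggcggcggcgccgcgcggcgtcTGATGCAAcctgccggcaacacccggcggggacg
ASNS (chr7:97872443-97872502, minus strand): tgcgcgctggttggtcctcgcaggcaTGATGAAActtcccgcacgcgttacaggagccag
GOT1 (chr10:99430789-99430848, minus strand): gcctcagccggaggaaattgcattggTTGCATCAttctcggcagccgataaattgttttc
AARS1 (chr16:70289660-70289719, minus strand): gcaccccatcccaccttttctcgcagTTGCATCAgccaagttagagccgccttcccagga
GARS1 (chr7:30594819-30594878, plus strand): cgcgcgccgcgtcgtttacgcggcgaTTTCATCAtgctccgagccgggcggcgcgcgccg
MARS1 (chr12:57488038-57488087, plus strand): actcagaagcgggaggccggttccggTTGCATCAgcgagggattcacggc

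The element was found in 4.46% of the 27305 genes with a RefSeq promoter. It was found in 5 of 20 stress response genes with a promoter in the table, 6 of 16 amino acid supply genes and 7 of 16 cytosolic tRNA synthetases. Among the synthetases the 7 with a match (AARS1, CARS1, GARS1, IARS1, MARS1, NARS1 and TARS1) had 6 called higher with Soshiho-tang and a median log2 fold change of 0.47. The 9 without a match had 3 called higher, 1 called lower and a median of -0.06. In the amino acid supply list the split was the other way round in size, with medians of 0.59 for the 6 genes with a match and 0.71 for the 10 without. A match is a description of letters and not a binding site.

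Amino acid supply genes were higher as a group with Soshiho-tang. Of 22 tested genes for amino acid synthesis, one-carbon metabolism and transport, 18 were called higher and 0 lower, and 17 to 18 were called higher when single libraries were left out. ASNS, which makes asparagine (ENSG00000070669, chr7:97852118-97872542, minus strand), was at 248, 265 and 256 CPM with Soshiho-tang and 149, 142 and 143 CPM with Yijin-tang. Its log2 fold change was 0.83 ± 0.057 (adjusted p = 2.18e-10), and vehicle averaged 94.0 CPM, so ASNS was graded across vehicle, Yijin-tang and Soshiho-tang. ALDH1L2, a mitochondrial folate enzyme, was at 71.7, 74.0 and 81.9 CPM against 29.2, 37.5 and 32.4 CPM. CBS, which channels homocysteine to cysteine, averaged 62.6 CPM ± 1.28 against 32.1 CPM ± 1.46. The glycine transporter SLC6A9 averaged 24.2 CPM ± 0.786 against 12.0 CPM ± 1.13, and GOT1, the cytosolic aspartate aminotransferase, 72.8 CPM ± 3.16 against 46.4 CPM ± 2.67.

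Of 20 cytosolic aminoacyl-tRNA synthetases, 11 were called higher with Soshiho-tang and 1 lower, with a median log2 fold change of 0.24. These enzymes load amino acids onto their tRNAs. SARS1 (serine) was at 130, 143 and 144 CPM against 93.3, 90.4 and 90.2 CPM, a log2 fold change of 0.61 ± 0.058 (adjusted p = 5.79e-08). CARS1 (cysteine), GARS1 (glycine) and AARS1 (alanine) followed at 0.60, 0.59 and 0.55. MARS1 (methionine), the neighbour of DDIT3, rose by 0.47. Within the same family TARS1 (threonine) averaged 288 CPM ± 17.3 against 275 CPM ± 11.2 and was not called (adjusted p = 0.453), although its promoter holds a match. RARS1 (arginine) was the member called lower, at 127, 125 and 133 CPM against 147, 145 and 147 CPM, but its adjusted p lay between 0.0515 and 0.0717 when either of 2 Soshiho-tang libraries (replicates 1 and 2) or Yijin-tang replicate 3 was left out.

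**Figure D2:**
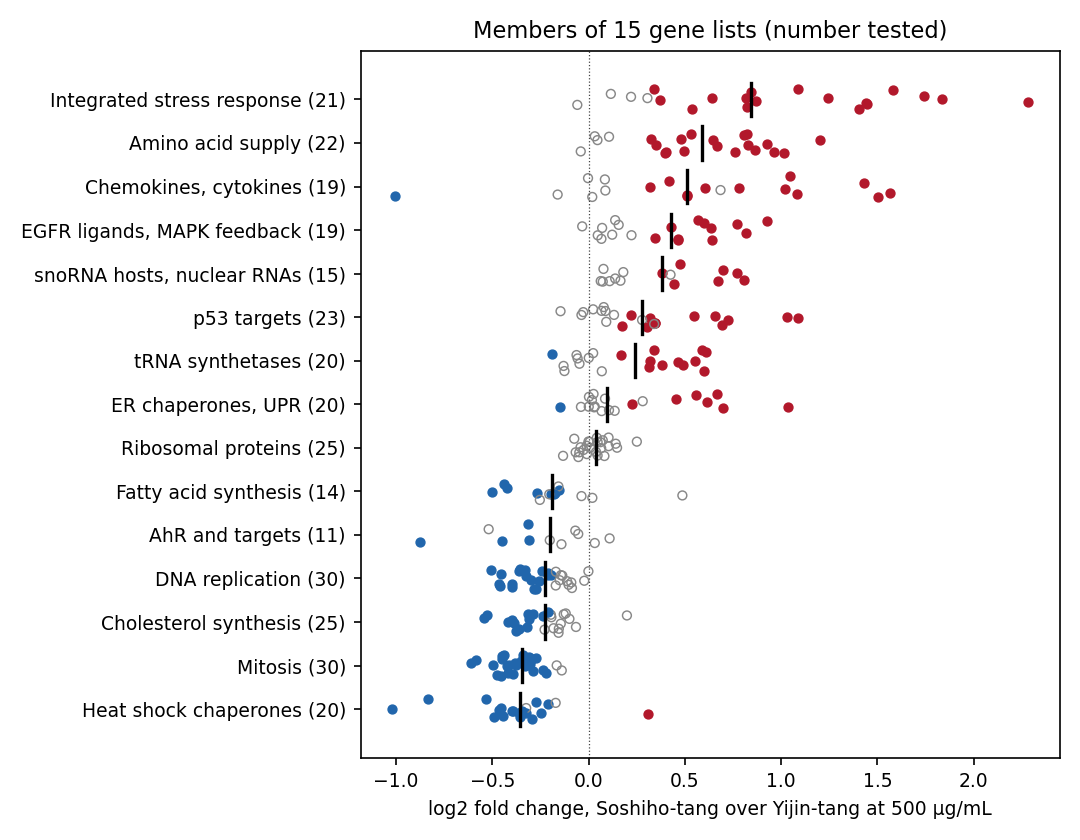
Each point is a gene of 1 of 15 lists, placed by its log2 fold change of Soshiho-tang over Yijin-tang at 500 µg/mL. Red and blue points are called higher and lower, open points are not called, black bars are list medians and the number tested is in brackets; stress response and amino acid supply genes lie to the right, and mitosis and heat shock genes to the left.

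Genes of the endoplasmic reticulum were higher only in part. Of 20 chaperones and unfolded protein response genes, 7 were called higher and 1 lower, and the list median was 0.10. ERN1, which encodes the sensor kinase and RNase IRE1α (ENSG00000178607, chr17:64039142-64130819, minus strand), was at 30.6, 34.6 and 36.2 CPM with Soshiho-tang and 14.6, 16.0 and 18.8 CPM with Yijin-tang, a log2 fold change of 1.04 ± 0.082 (adjusted p = 2.63e-09). Its substrate XBP1 was at 84.95, 99.8 and 103 CPM against 58.0, 59.5 and 63.6 CPM. HERPUD1, an adaptor of protein degradation from the reticulum, averaged 67.5 CPM ± 5.34 against 41.6 CPM ± 0.929, and the co-chaperone DNAJB9 18.4 CPM ± 1.82 against 12.0 CPM ± 1.04. HSPA5, the main chaperone BiP, was at 916, 963 and 972 CPM against 677, 699 and 708 CPM, a log2 fold change of 0.45. For ERN1 and XBP1 the Yijin-tang level was near that of vehicle (16.9 and 57.5 CPM). CALR, the lectin chaperone calreticulin, went the other way at 466 CPM ± 25.1 against 516 CPM ± 18.4 (adjusted p = 0.0427), and that call was lost without the filter on low counts (adjusted p = 0.108) and with only the 6 libraries in the fit (0.0759, or 0.111 with a replicate block). It was also lost without replicate 1 (0.182) or 2 (0.181) of Soshiho-tang and without replicate 1 (0.146) or 2 (0.15) of Yijin-tang.

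The endoplasmic reticulum stress element, a motif with a pair of conserved ends and a spacer, was found in 7 of 19 genes of this list with a RefSeq promoter and in 0.092% of all genes with a promoter. XBP1 and HSPA5 are shown because both hold it and both were called higher.
XBP1 (chr22:28800577-28800647, minus strand): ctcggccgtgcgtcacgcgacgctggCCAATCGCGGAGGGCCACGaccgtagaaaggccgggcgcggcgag
HSPA5 (chr9:125241365-125241435, minus strand): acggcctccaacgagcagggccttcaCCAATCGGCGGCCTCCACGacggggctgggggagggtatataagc
The 7 genes with the element had 2 called higher and 1 lower, and the 12 without it 5 called higher, so the letters did not separate the genes that differed.

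Most heat shock chaperones of the cytosol and mitochondria were lower with Soshiho-tang. Of 20 tested, 17 were called lower and 1 higher, with a median log2 fold change of -0.36 and 15 to 17 called lower when single libraries were left out. HSPA1A, the inducible HSP70 (ENSG00000204389, chr6:31815464-31817946, plus strand), was at 116, 99.3 and 113 CPM with Soshiho-tang and 204, 230 and 231 CPM with Yijin-tang, a log2 fold change of -1.02 ± 0.121 (adjusted p = 1.82e-06). HSPA1B, a near-identical copy whose reads cannot be cleanly separated from those of HSPA1A, was at 73.9 CPM ± 6.64 against 132 CPM ± 11.7. HSP90AA1, the inducible cytosolic HSP90, was at 1589, 1520 and 1609 CPM against 2180, 2190 and 2443 CPM, and the constitutive HSPA8 at 1333 CPM ± 111 against 1873 CPM ± 189. The member called higher was HSPA9, the mitochondrial HSP70, at 716 CPM ± 19.4 against 578 CPM ± 4.38. Vehicle was higher than both extracts at 500 µg/mL for HSPA1A (283 CPM) and HSP90AA1 (2743 CPM). It was also higher than both at 20 µg/mL, where HSPA1A averaged 235 CPM with Soshiho-tang and 239 CPM with Yijin-tang. HSP90AA1 averaged 2271 and 2272 CPM there.

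The heat shock factor binds inverted repeats of a short unit, and a pair of such units was searched as GAANNTTC, which reads the same on both strands. It was found in 11 of 19 genes of the list with a promoter and in 8.21% of all genes, and the promoters of HSPA1A and HSP90AA1 show it.
HSPA1A (chr6:31815411-31815470, plus strand): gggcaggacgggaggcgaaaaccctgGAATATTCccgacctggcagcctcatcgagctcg
HSP90AA1 (chr14:102087094-102087153, minus strand): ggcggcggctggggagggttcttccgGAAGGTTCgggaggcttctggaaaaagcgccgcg
Of the 11 genes with the pair 10 were called lower with Soshiho-tang, at a median of -0.45. Of the 8 without it 6 were called lower and 1 higher, at a median of -0.33.

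Proliferation genes were lower with Soshiho-tang. Of 30 mitosis genes 28 were called lower and 0 higher, with a median log2 fold change of -0.34, and 26 to 27 were called when single libraries were left out. Of 30 DNA replication genes 19 were called lower and 0 higher, with a median of -0.23. MKI67, the proliferation antigen Ki-67 (ENSG00000148773, chr10:128096659-128126385, minus strand), was at 419, 352 and 393 CPM with Soshiho-tang and 580, 628 and 539 CPM with Yijin-tang (log2 fold change -0.59, adjusted p = 0.000103). Vehicle averaged 836 CPM, above both extracts at 500 µg/mL and at 20 µg/mL (650 CPM with Soshiho-tang, 631 CPM with Yijin-tang). The mitotic kinesin KIF20A was at 47.8, 42.8 and 47.4 CPM against 63.0, 74.5 and 73.0 CPM, and RRM2, the subunit of ribonucleotide reductase that supplies deoxynucleotides, at 209 CPM ± 8.67 against 288 CPM ± 7.94. In RNA from a whole culture, fewer dividing cells and less of these transcripts per cell cannot be told apart.

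Among cell cycle regulators the differences ran in both directions. CCND3, cyclin D3, was at 101, 91.7 and 94.4 CPM with Soshiho-tang and 152, 144 and 144 CPM with Yijin-tang, a log2 fold change of -0.62 ± 0.063 (adjusted p = 1.7e-07). CDKN2C, an inhibitor of the kinases CDK4 and CDK6, was at 7.92, 8.36 and 9.07 CPM against 15.0, 15.0 and 16.4 CPM, a log2 fold change of -0.87. CDKN1A, the inhibitor p21, was higher at 106, 109 and 119 CPM against 90.1, 90.0 and 87.5 CPM (0.32, adjusted p = 0.0036). The related inhibitors CDKN2A and CDKN2B had 0 counts in all 6 libraries. DNMT3B, a de novo DNA methyltransferase, was at 12.2, 11.6 and 12.5 CPM against 20.6, 21.0 and 18.2 CPM. All 3 libraries of an extract stood on the same side for each of the called genes given here, as they did for 98.5% of all called genes.

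Of 23 p53 target genes 12 were called higher with Soshiho-tang and 0 lower, with a median of 0.28, and 8 to 11 when single libraries were left out. GADD45A, a growth arrest and DNA damage gene, was at 25.3, 31.0 and 30.3 CPM against 14.7, 13.2 and 14.6 CPM, a log2 fold change of 1.03 ± 0.082 (adjusted p = 2.63e-09). TNFRSF10B, the death receptor DR5, was at 212, 238 and 227 CPM against 139, 136 and 144 CPM, and the BH3-only genes PMAIP1 and BBC3 at 22.9 CPM ± 0.645 against 13.8 CPM ± 1.62 and 7.93 CPM ± 1.21 against 5.02 CPM ± 0.614. Several of the genes that differed, among them GADD45A, TNFRSF10B, PMAIP1 and GDF15, are also known targets of ATF4 or CHOP. Which regulator acts on them here was not tested. BAX was at 111 CPM ± 6.73 against 106 CPM ± 9.43 and not called (adjusted p = 0.642), while CDKN1A, given above, was called higher (adjusted p = 0.0036). Of 21 death receptor and BCL2 family genes 7 were called higher and 0 lower.

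**Figure D3:**
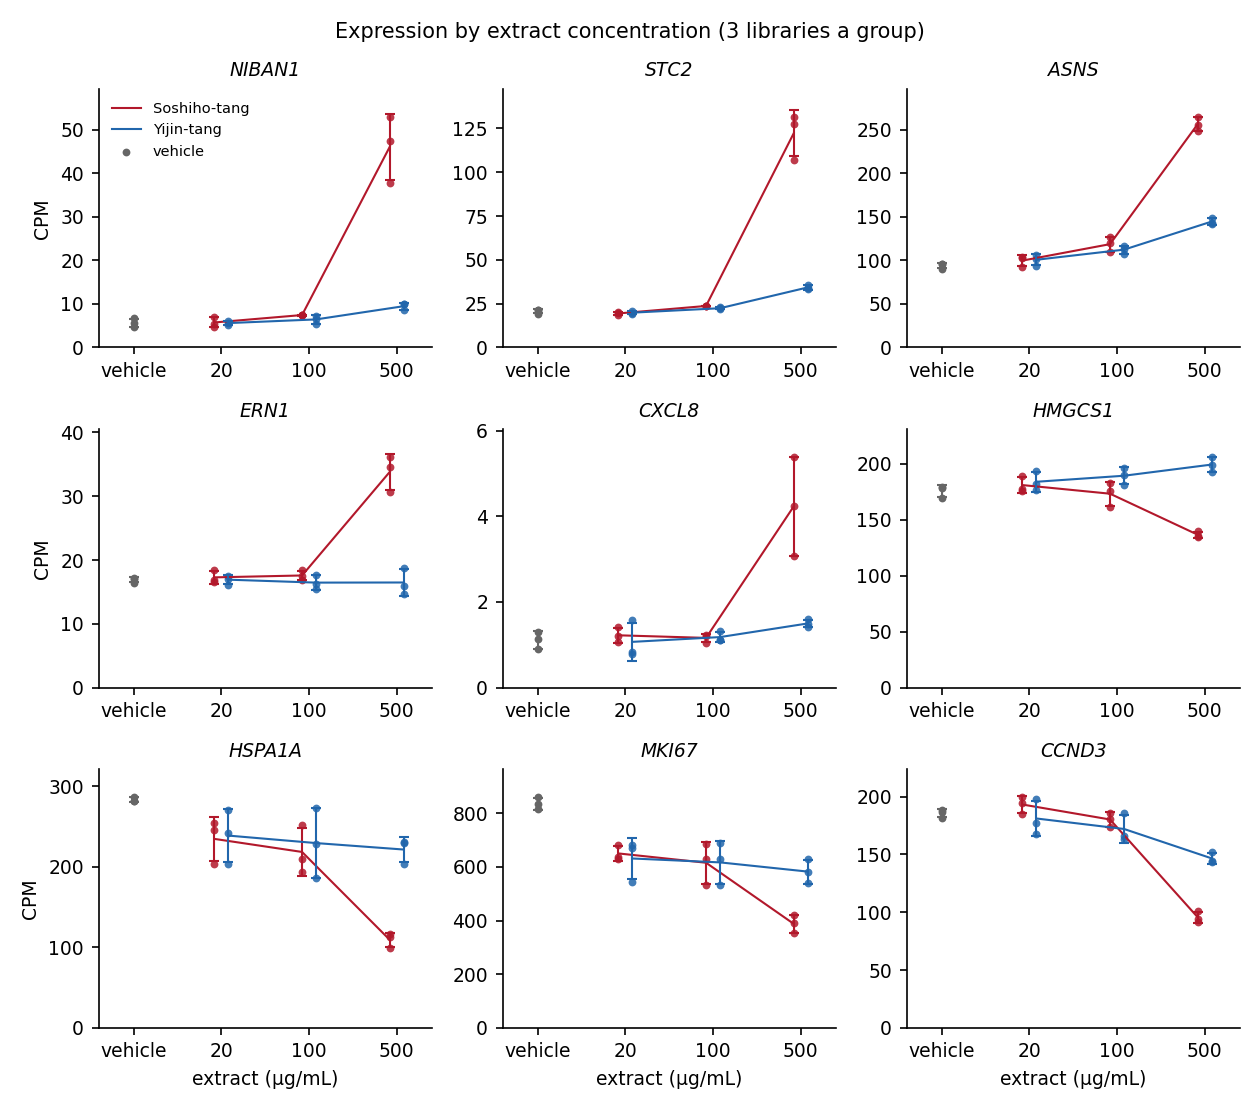
CPM of 9 genes in vehicle and at 20, 100 and 500 µg/mL of Soshiho-tang (red) and Yijin-tang (blue); points are libraries, lines join group means and bars are SD (n = 3). None of the 9 differed between extracts at 20 or 100 µg/mL in edgeR's test, and at 500 µg/mL Soshiho-tang stands above Yijin-tang for the first 5 genes and below it for the last 4.

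Chemokine genes were higher with Soshiho-tang in most cases. Of 19 chemokine and cytokine genes tested, 12 were called higher and 1 lower, with a median log2 fold change of 0.51. CXCL8, the neutrophil chemokine interleukin-8 (ENSG00000169429, chr4:73740506-73743716, plus strand), was separated between the extracts, at 3.07, 4.23 and 5.39 CPM against 1.59, 1.48 and 1.42 CPM, a log2 fold change of 1.5 ± 0.214 (adjusted p = 2.33e-05). CXCL5, a related chemokine, was at 144, 158 and 151 CPM against 69.4, 71.1 and 83.0 CPM. CXCL2 was at 6.84, 9.67 and 9.77 CPM against 3.73, 2.87 and 3.19 CPM. The member called lower was CCL2, which recruits monocytes, at 2.95, 3.18 and 2.74 CPM against 6.28, 5.76 and 5.80 CPM, a log2 fold change of -1.01 ± 0.108 (adjusted p = 3.86e-07). ICAM1, a leukocyte adhesion molecule, averaged 1.91 CPM ± 0.342 against 0.911 CPM ± 0.304. NFKBIA, the feedback inhibitor of NF-κB, averaged 45.8 CPM ± 3.00 against 45.2 CPM ± 2.32 and was not called (adjusted p = 0.896). Of 10 immune cell markers 6 had at most 10 counts in any library of the series, while in the 6 libraries compared CD68 had 266 to 475 counts, CD14 52 to 96 and ITGAM 29 to 43, and their part in the chemokine result was not tested.

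Ligands of the epidermal growth factor receptor and the phosphatases that damp MAPK signalling were higher as well. Of 19 such genes 11 were called higher with Soshiho-tang and 0 lower, with a median of 0.43. The ligand EREG was at 251, 279 and 269 CPM against 147, 153 and 167 CPM, and the ligand BTC at 4.40 CPM ± 0.144 against 2.30 CPM ± 0.413. DUSP5, a nuclear phosphatase of ERK, was at 72.6, 79.8 and 82.2 CPM against 44.1, 43.7 and 45.3 CPM (log2 fold change 0.82, adjusted p = 6e-11). Vehicle averaged 59.9 CPM for DUSP5, between the extracts, so here they lay on opposite sides of it. DUSP1 was placed alike, at 144 CPM ± 11.7 with Soshiho-tang, 92.3 CPM ± 1.41 with Yijin-tang and 108 CPM in vehicle. At 20 µg/mL both genes were already below vehicle with either extract. DUSP5 averaged 52.9 CPM with Soshiho-tang and 52.5 CPM with Yijin-tang there, and DUSP1 94.4 and 97.9 CPM. From 20 to 500 µg/mL of Yijin-tang the log2 change was -0.24 for DUSP5 (adjusted p = 0.0198) and -0.09 for DUSP1 (adjusted p = 0.855). Of 18 immediate early genes 8 were called higher and 0 lower, and 5 were called without Soshiho-tang replicate 2 or without Yijin-tang replicate 3. FOSL1, an AP-1 subunit, was at 41.4 CPM ± 4.87 against 25.0 CPM ± 1.54. NR4A1, an orphan nuclear receptor, was at 19.0, 17.4 and 17.9 CPM against 14.5, 14.8 and 13.2 CPM, with both below the vehicle mean of 36.6 CPM.

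Some targets of the aryl hydrocarbon receptor were higher with Yijin-tang at 500 µg/mL, and for CYP1B1 the order of the extracts changed with concentration. Of 11 tested genes of this list 4 were called lower with Soshiho-tang at 500 µg/mL and 0 higher. CYP1A1, the most inducible cytochrome of the receptor (ENSG00000140465, chr15:74719542-74725610, minus strand), was at 3.03, 3.28 and 3.51 CPM with Soshiho-tang and 6.07, 5.86 and 6.12 CPM with Yijin-tang, a log2 fold change of -0.87 ± 0.141 (adjusted p = 0.000113). Vehicle averaged 0.872 CPM, below every extract group. At 20 µg/mL Soshiho-tang was the higher extract, at 3.08 CPM against 1.64 CPM, although that difference was not called (log2 fold change 0.92, adjusted p = 0.0686).

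CYP1B1 (ENSG00000138061, chr2:38066973-38109902, minus strand), a second cytochrome of the same family, crossed over in both tests. At 20 µg/mL it was at 162, 165 and 168 CPM with Soshiho-tang and 117, 116 and 108 CPM with Yijin-tang, a log2 fold change of 0.54 (adjusted p = 0.000125). At 500 µg/mL it was at 179, 166 and 191 CPM against 211, 228 and 229 CPM, a log2 fold change of -0.31 (adjusted p = 0.000881). The change between these differences was -0.85 (adjusted p = 6e-07), against a vehicle mean of 101 CPM. CYP1B1 overlaps CYP1B1-AS1 and RMDN2. TIPARP, a repressor of the receptor, was at 66.2, 66.1 and 71.4 CPM against 77.6, 86.9 and 87.9 CPM at 500 µg/mL, and AHRR, the receptor's own repressor, at 5.44, 5.75 and 5.59 CPM against 8.07, 7.50 and 7.39 CPM. From 20 to 500 µg/mL of Soshiho-tang the log2 change was 0.09 for CYP1A1 (adjusted p = 0.738) and 0.11 for CYP1B1 (adjusted p = 0.2), while TIPARP rose by 0.23 (adjusted p = 0.0293). The same step of Yijin-tang was 1.88 for CYP1A1 (adjusted p = 3e-08) and 0.97 for CYP1B1 (adjusted p = 8.6e-10), and TIPARP rose by 0.91 (adjusted p = 3e-08). Both steps rest on 500 µg/mL libraries already used in the comparison of extracts.

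**Figure D4:**
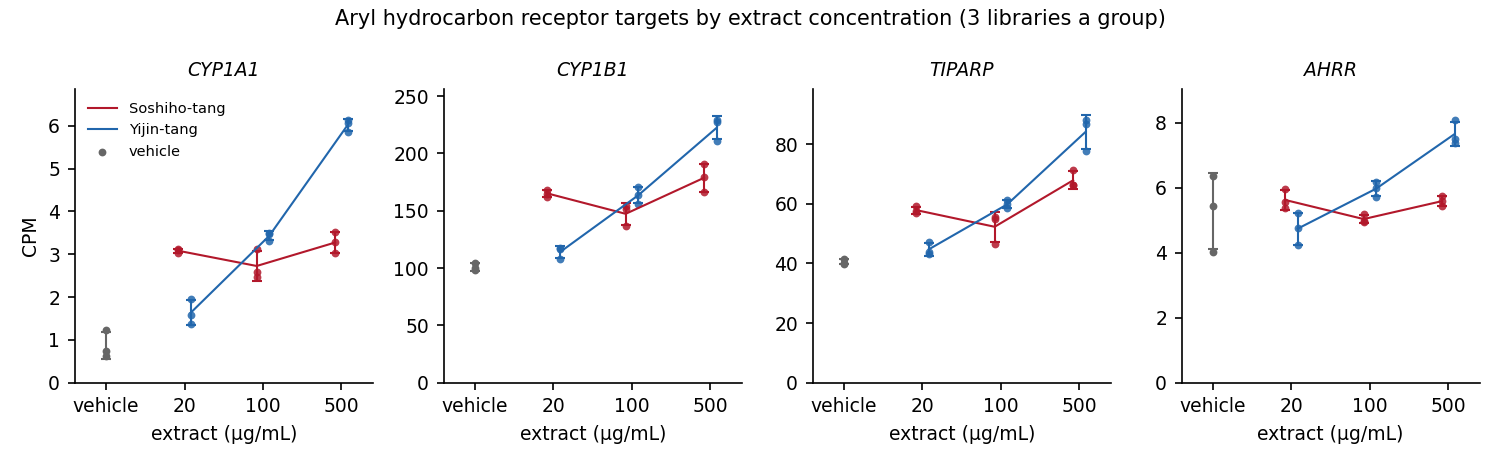
CPM of 4 targets of the aryl hydrocarbon receptor in vehicle and at 20, 100 and 500 µg/mL of Soshiho-tang (red) and Yijin-tang (blue); points are libraries, lines join group means and bars are SD (n = 3). Soshiho-tang has the higher mean at 20 µg/mL and Yijin-tang at 500 µg/mL, with the lines crossing between them. Of the 4 genes only CYP1B1 was called at 20 µg/mL.

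Lipid synthesis genes were lower with Soshiho-tang. Of 25 cholesterol synthesis and uptake genes 13 were called lower and 0 higher, with a median log2 fold change of -0.23, and of 14 fatty acid genes 8 were called lower and 0 higher, with a median of -0.19. HMGCS1, an early enzyme of the mevalonate pathway, was at 139, 135 and 135 CPM against 199, 192 and 206 CPM, a log2 fold change of -0.54 ± 0.063 (adjusted p = 1.08e-06). Vehicle averaged 175 CPM, between the extracts. SCD, the stearoyl-CoA desaturase, was at 1129, 1079 and 1136 CPM against 1516, 1671 and 1546 CPM. Vehicle was at 1072 CPM, so at 500 µg/mL it was the Yijin-tang libraries that stood away from vehicle. FADS2, a fatty acid desaturase, was arranged in the same way, at 423 CPM ± 7.80, 573 CPM ± 19.5 and 438 CPM in vehicle. At 20 µg/mL, however, both extracts stood above vehicle. SCD averaged 1292 CPM with Soshiho-tang and 1346 CPM with Yijin-tang there, and FADS2 524 and 539 CPM. From 20 to 500 µg/mL the log2 change of SCD was -0.21 with Soshiho-tang (adjusted p = 0.00419) and 0.23 with Yijin-tang (adjusted p = 0.031). For FADS2 it was -0.31 (adjusted p = 0.000328) and 0.09 (adjusted p = 0.838). A sterol element searched as TCACNCCAC was found in 1 of 18 cholesterol genes with a promoter and in 1.39% of all genes.

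Genes of glycolysis and of the hypoxia response differed in a mixed way. Of 18 glycolysis enzymes 8 were called lower with Soshiho-tang and 0 higher, but 5 without replicate 3 of Soshiho-tang or replicate 2 of Yijin-tang and 4 without replicate 2 of Soshiho-tang or replicate 1 of Yijin-tang. ALDOC, an aldolase isoform, was at 1.36, 1.59 and 1.17 CPM against 3.39, 2.74 and 2.45 CPM. Of 20 targets of the hypoxia-inducible factor 6 were called lower and 2 higher. EGLN3, an oxygen-sensing prolyl hydroxylase, was at 5.75, 5.15 and 6.36 CPM against 9.94, 10.1 and 10.3 CPM (log2 fold change -0.81, adjusted p = 1.1e-07). VEGFA, the angiogenic growth factor, went the other way at 52.7, 62.3 and 63.1 CPM against 37.3, 39.7 and 37.3 CPM (0.64, adjusted p = 8.54e-08).

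Several genes outside these groups were among the most different. TSC22D3, which encodes the glucocorticoid-induced leucine zipper, was at 27.4, 28.1 and 30.8 CPM with Soshiho-tang and 11.7, 10.7 and 10.8 CPM with Yijin-tang, a log2 fold change of 1.38 ± 0.091 (adjusted p = 9.89e-11). The list of glucocorticoid targets, which includes TSC22D3, had 3 of 15 called higher and 4 lower (2 lower without replicate 2 or 3 of Soshiho-tang or replicate 2 of Yijin-tang, and 1 without Yijin-tang replicate 3), and FKBP5, a sensitive target of the receptor, at 28.9 CPM ± 0.899 against 31.8 CPM ± 0.555 (adjusted p = 0.147). CDCP1, a transmembrane substrate of SRC kinases, was at 22.2, 25.1 and 25.6 CPM against 9.26, 9.85 and 8.19 CPM. AKNA, a centrosomal protein, was at 27.9 CPM ± 1.61 against 10.7 CPM ± 0.630. CLGN, a chaperone of the endoplasmic reticulum related to calnexin, was at 22.7 CPM ± 1.09 against 9.85 CPM ± 0.708, and SMOC1, a secreted calcium-binding matrix protein, at 28.0 CPM ± 2.05 against 12.2 CPM ± 1.08. BAAT, which conjugates bile acids to amino acids, was the mirror image at 11.8, 11.4 and 11.5 CPM against 19.8, 23.0 and 22.2 CPM.

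Noncoding RNAs that host small nucleolar RNAs or reside in the nucleus were higher with Soshiho-tang in 7 of 15 cases and lower in 0, with a median of 0.38. ZFAS1 was at 138, 156 and 153 CPM against 92.5, 82.2 and 80.5 CPM, and NEAT1, the scaffold of paraspeckles, at 659, 800 and 612 CPM against 443, 360 and 409 CPM. The cytosolic ribosomal proteins themselves were not called in 25 of 25 cases in edgeR, with a median of 0.04, and of 22 subunits of respiratory complex I 1 was called lower and 0 higher. That 1 call was lost when any single library other than Yijin-tang replicate 2 was left out and with the 18 libraries of both extracts, and 3 were called lower without the filter on low counts or with only the 6 libraries. Targets of NRF2, the sensor of oxidative stress, had 3 of 26 called higher and 8 lower, but 1 to 2 higher and 3 to 6 lower when single libraries were left out, with the lowest numbers without Soshiho-tang replicate 2. Interferon targets had 0 of 17 called higher and 1 lower.

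Secreted products of A549 cells differed gene by gene. The fibrinogen chains FGA, FGB and FGG, coagulation proteins that A549 cells also make, were lower with Soshiho-tang. FGA was at 111, 99.8 and 107 CPM against 149, 143 and 150 CPM (log2 fold change -0.48, adjusted p = 6.26e-08), FGB at 115 CPM ± 12.3 against 161 CPM ± 6.52, and FGG at 91.5 CPM ± 6.05 against 110.1 CPM ± 0.820. FGA and FGB are also in the hepatocyte marker list, in which 7 of 12 genes had at most 10 counts in any library and APOA2 had 0 in all 6. The list summed to 259 to 298 CPM with Soshiho-tang, 379 to 393 CPM with Yijin-tang and 494 to 520 CPM with vehicle, a sum to which FGA and FGB contribute most. HNF4A, a transcription factor of liver and gut in the same list, had 1635 to 1794 counts with Soshiho-tang and 2287 to 2500 with Yijin-tang, and the part of such markers in the fibrinogen result was not tested. The airway mucins MUC5AC and MUC5B were higher with Soshiho-tang, MUC5AC at 328, 289 and 294 CPM against 185, 212 and 185 CPM and MUC5B at 77.8, 73.5 and 86.7 CPM against 40.1, 44.4 and 49.0 CPM. Vehicle averaged 327 CPM for MUC5AC and 84.0 CPM for MUC5B, close to Soshiho-tang at 500 µg/mL and above Yijin-tang. At 20 µg/mL both extracts were already below vehicle. MUC5AC averaged 240 CPM with Soshiho-tang and 208 CPM with Yijin-tang there, and MUC5B 59.3 and 52.1 CPM. From 20 to 500 µg/mL the log2 change of MUC5AC was 0.34 with Soshiho-tang (adjusted p = 0.0355) and -0.10 with Yijin-tang (adjusted p = 0.948). For MUC5B it was 0.42 (adjusted p = 0.0625) and -0.23 (adjusted p = 0.855). No other gene of the 11 tested in the mucin list was called between the extracts at 500 µg/mL. Among matrix genes COL1A1, a collagen chain, was lower at 20.5, 17.5 and 16.3 CPM against 31.6, 30.4 and 26.2 CPM. The TGF-β and matrix list as a whole had 2 genes called higher and 5 lower of 28, with 3 lower when any 1 library other than Soshiho-tang replicate 2 was left out and 1 lower without that library. The summed level of the fibroblast markers, which include COL1A1, moved with these genes as given above, and its part in them was not tested.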

How the data were processed

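RNA of A549 cells was sequenced as 100 bp read pairs from a strand-marking kit, per the labels' protocols. Reads were handled with RSEM 1.3.3, STAR 2.7.3a, Trim Galore 0.6.5 and FastQC 0.11.9 on hg38 (GRCh38), per the submitters' processing notes, which give no order. The authors deposited 1 table of expected counts per gene for 60675 Ensembl identifiers, and 9.09% to 11.6% of the values of a library are not whole. The annotation and strand setting of the counting are not given in the sources used here. Another 30 columns of the table, which hold 0 values, were not used.

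Expected counts were rounded and fitted in R 4.3.3 with edgeR 4.0.16 (filterByExpr, TMM factors, quasi-likelihood test) on 27 libraries, those of every group (10 in all) that has replicates, so that the groups share an estimate of the spread. This kept 17459 genes, 15573 of them with a symbol from the name table that was supplied, in which 56558 identifiers matched. Benjamini-Hochberg adjustment ran over all tested genes, the threshold was 0.05, and a standard error is the absolute log2 difference over the root of the F statistic. CPM are rounded counts scaled to the TMM-adjusted library size; they are not per length, so levels were compared between libraries and not between genes. The biological coefficient of variation was 6.89%. The code was tested on simulated counts. Positions come from GENCODE release 29 and promoters from RefSeq.

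The comparison and the gene lists were chosen with earlier results of these data known, so the lists are described by counts and medians and carry no test of their own. A gene shared by lists counts in each of them, so their counts are not independent. Genes named are up to 15 in each direction with the largest fold change among those that had a symbol, were called, averaged 2 or more in log2 CPM and had groups without overlap, up to 4 called members of each list in each direction, a set of pathway genes named whatever their values, and the 8 largest changes with dose in each direction; not every gene so named is described. CEBPG, GOT1, MARS1, TARS1, BAX, ICAM1, NFKBIA and FKBP5 were added after their values were seen. Alternatives were DESeq2 1.42.0, RLE factors, no filter on low counts, smaller sets of libraries, a replicate block and leaving out each library; the counts of list members without each library were added after seeing the data.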

Additional observations from a re-analysis of the deposited data

Results flagged for a closer look

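The difference between the extracts at 500 µg/mL was tested against their difference at 20 µg/mL, and it had changed for 705 genes in edgeR's quasi-likelihood test after Benjamini-Hochberg adjustment. The values below are that change on the log2 scale, positive where Soshiho-tang gained on Yijin-tang. They are given only where it was called, in 73 of 84 genes described above by CPM or log2 fold change. The change was not called for HSPA8, BBC3, ICAM1, MUC5B, MUC5AC, RARS1, FKBP5, CALR, TARS1, BAX and NFKBIA (adjusted p 0.0696 to 0.852).

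In the stress response the change was 2.24 for NIBAN1, 1.87 for STC2, 1.77 for DDIT3, 1.63 for TRIB3, 1.43 for SESN2, 1.38 for ATF3, 1.29 for PPP1R15A, 1.27 for CHAC1, 1.02 for GDF15, 0.82 for DDIT4, 0.82 for CEBPG and 0.36 for ATF4. Amino acid supply genes gave 1.11 for ALDH1L2, 1.05 for CBS, 0.94 for SLC6A9, 0.84 for ASNS and 0.66 for GOT1, and tRNA synthetases 0.67 for SARS1, 0.62 for CARS1, 0.61 for GARS1, 0.57 for AARS1 and 0.49 for MARS1. Reticulum genes gave 1.00 for ERN1, 0.72 for XBP1, 0.71 for HERPUD1, 0.60 for DNAJB9 and 0.47 for HSPA5, and CLGN gave 1.19. Heat shock genes moved the other way, by -0.99 for HSPA1A, -0.83 for HSPA1B and -0.53 for HSP90AA1, with HSPA9 at 0.34.

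Proliferation genes gave -0.56 for KIF20A, -0.63 for MKI67, -0.48 for RRM2, -0.74 for CDKN2C, -0.71 for CCND3 and -0.79 for DNMT3B, with CDKN1A at 0.36. Damage and death genes gave 1.07 for GADD45A, 0.75 for PMAIP1 and 0.73 for TNFRSF10B. Chemokines gave 1.52 for CXCL2, 1.33 for CXCL8 and 0.99 for CXCL5 and -1.43 for CCL2. Growth factor and immediate early genes gave 0.93 for BTC, 0.65 for EREG, 0.81 for DUSP5, 0.69 for DUSP1, 0.68 for FOSL1 and 0.48 for NR4A1.

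The targets of the aryl hydrocarbon receptor gave -1.79 for CYP1A1, -0.85 for CYP1B1, -0.70 for AHRR and -0.68 for TIPARP, and in these 4 the group means changed order between 20 and 500 µg/mL. Of the 4 only CYP1B1 was called at 20 µg/mL. The order was not particular to them. CCL2 averaged 5.09 CPM with Soshiho-tang and 3.81 CPM with Yijin-tang at 20 µg/mL, and 2.96 and 5.95 CPM at 500 µg/mL. Lipid genes gave -0.52 for HMGCS1, -0.44 for SCD and -0.40 for FADS2. The remaining genes gave -0.74 for EGLN3, 0.74 for VEGFA, -1.03 for ALDOC, 1.43 for TSC22D3, 0.76 for NEAT1, 0.85 for ZFAS1, -0.46 for FGA, -0.51 for FGB, -0.28 for FGG, -0.78 for COL1A1, -0.77 for BAAT, 1.35 for AKNA, 1.40 for CDCP1 and 1.19 for SMOC1.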

How the results depend on the processing

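At 500 µg/mL the 2200 calls became 2226 with DESeq2, 2198 with RLE factors, 2223 without the filter on low counts, 2255 with the 18 libraries of both extracts and 2588 with only the 6 libraries compared, and 1361 (without Soshiho-tang replicate 2) to 1811 when single libraries were left out. At 100 µg/mL the 0 calls became 3 with DESeq2 and 108 without the filter. At 20 µg/mL the 1 call became 4 with DESeq2, 57 without the filter, 2 with the 18 libraries and 1 to 2 when single libraries were left out. The 705 changes with dose became 454 (without Soshiho-tang replicate 2 at 500 µg/mL) to 646 when single libraries were left out. The cause of these shifts was not tested. With the replicate number as a block the counts were 2444 at 500 µg/mL, 0 at 100, 1 at 20 and 826 for the change with dose, and with only the 6 libraries the block took 2588 to 2331. Libraries with the same number were correlated at 0.023, -0.147 and -0.043 between the extracts at 500 µg/mL, as deviations from their group means. Over all pairs of groups the median was 0.07 (-0.147 to 0.305) for the same number and -0.036 (-0.336 to 0.225) for other numbers. Deviations within a group cancel, so both medians are tied to each other and cannot exclude a block shared by libraries of the same number. The main fit used no block. Among the genes named, the sign changed only for NFKBIA, which was not called in any fit, at -0.02 without Yijin-tang replicate 1 and from -0.0353 to 0.0605 over the fits that left out 1 library. Of the lists, the median of the lysosome, LXR, lipid oxidation and mucin genes changed sign under some alternative.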
